A study of Homo sapiens with 6 samples.

Results

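Integrins, laminins and platelet adhesion receptors were followed in K562 cells as a set of 41 genes given by symbol, and 39 of the 41 had a row among the 24960 genes of the deposited table. GP9 and GP1BB were not analysed here. The set holds the 18 α and 8 β integrin subunits, 6 laminin chains, the platelet receptor genes GP6 and GP1BA, and the adhesion receptors PECAM1, SELPLG, CD44, CD47 and CD99. K562 is a chronic myeloid leukemia (CML) cell line that carries the BCR::ABL fusion and grows in suspension. RNA was sequenced from 3 libraries labelled Control and 3 libraries labelled Hyperoside, a plant flavonol glycoside given at 2 mM. The time of exposure and the vehicle of the control group are not given in the sources used here. The labels number the replicates but do not say that they were separate cultures, so the spread between them may be technical.

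Integrins are membrane receptors built from an α and a β subunit, and a subunit without a partner is largely kept inside the cell. The pairing decides the ligand. Several β1 integrins and the αV integrins bind matrix proteins such as fibronectin, vitronectin and laminin, β2 integrins are restricted to leukocytes and bind ICAM proteins and complement fragments, and αIIbβ3 is the fibrinogen receptor of megakaryocytes and platelets. Laminins are trimers of an α, a β and a γ chain in basement membranes. In blood cell precursors these receptors anchor cells to bone marrow stroma and change as cells mature toward platelets or phagocytes.

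Each library held between 35613283 and 36754725 gene counts. A count of 0 allows up to 3 counts, a limit that covers counting error only. The erythroid markers fitted the K562 label, with GATA1, a master factor of that lineage, at 88.0 to 105.8 FPKM, a unit that scales counts to gene length and library total. All 9 listed erythroid genes passed 1 FPKM in at least 1 library. Their sum was between 3299 and 4156 FPKM in the control group and between 2323 and 2779 FPKM in the hyperoside group. Most of it came from the globin genes HBG2 and HBG1, whose means fell from 2179 to 1299 FPKM and from 769 to 437 FPKM. In the test described below, 3 of the 9 were called higher, 3 lower and 3 were not called, beside 45.3% called of all tested genes. Fibroblast markers summed to at most 1.62 FPKM and endothelial markers to at most 0.168 FPKM in any library. Monocytic markers summed to between 33.2 and 38.5 FPKM in the control group and between 51.0 and 54.3 FPKM in the hyperoside group, nearly all of it from the lysozyme gene LYZ, while the defining monocyte marker CD14 was at most at 0.119 FPKM. T cell markers summed to between 35.2 and 42.6 FPKM and to between 48.1 and 54.1 FPKM, nearly all of it CD3D. In such bulk RNA, fewer cells of a type and less RNA per cell cannot be told apart.

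Of the 39 genes, 29 had enough counts to be tested with edgeR, which compared the groups over 15095 genes. At a Benjamini-Hochberg adjusted p under 0.05, 16 of the 29 were called higher in the hyperoside group, 5 were called lower and 8 were not called. Over all tested genes 45.3% were called, 22.1% higher and 23.2% lower. Of the 29 genes, 10 were called higher with a fold above 2, a class that held 6.43% of all tested genes. The 5 lower genes were at between 0.598 and 0.781 times their control level. In normalized counts, 20 of the 29 genes had no overlap between the groups, against 54.4% of all tested genes. The median log2 fold change was 0.66 in the set and 0.00316 over all tested genes. Without hyperoside replicate 3, in which CD99 stood apart, 12 genes were called higher and 5 lower. The calls lost were those of CD99, ITGA3, ITGB7 and LAMA2. Over all genes, 5785 of 15496 were called in that run, against 6841 of 15095 in the full run. Without hyperoside replicate 2, 2 genes were called lower, in a run that called 5862 of 15492 genes.

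The remaining 10 genes with a row had too few counts for a test. ITGA11, ITGAD and GP1BA, the gene of the von Willebrand factor-binding chain of the platelet GPIb complex, had 0 counts in each of the 6 libraries. ITGA1, ITGA8, ITGA9, ITGA10, ITGB6, ITGB8 and LAMA3 had between 0 and 19 counts in any library. At this depth no difference was detectable in these genes. ITGA6, a laminin receptor subunit with 5, 13 and 7 counts under control conditions, reached the minimum of 10 counts throughout the hyperoside group only, with 15, 18 and 35 counts.

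Fibronectin receptor genes made up most of the integrin transcripts. ITGA5, the α subunit of α5β1, is located on chromosome 12 (GRCh38, 54395261 to 54419460, minus strand). It was at 61.9, 61.8 and 61.2 FPKM under control conditions and at 101.7, 87.6 and 105.7 FPKM after hyperoside, here and below in the order of replicates 1, 2 and 3. All 3 hyperoside libraries lay above all 3 control libraries. ITGA5 rose 1.54-fold, a log2 fold change of 0.62 (SE 0.08, edgeR adjusted p = 3.48e-06). Its partner ITGB1, on chromosome 10 from 32900319 to 33005792, was at 70.6, 84.8 and 81.3 FPKM under control conditions and 78.2, 72.4 and 70.8 FPKM after hyperoside. The groups overlapped, and the log2 fold change of -0.14 (95% interval -0.30 to 0.0091, edgeR adjusted p = 0.117) was not called. Without control replicate 1, ITGB1 was called lower, with a log2 fold change of -0.20 (adjusted p = 0.0106 from edgeR).

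**Figure D1:**
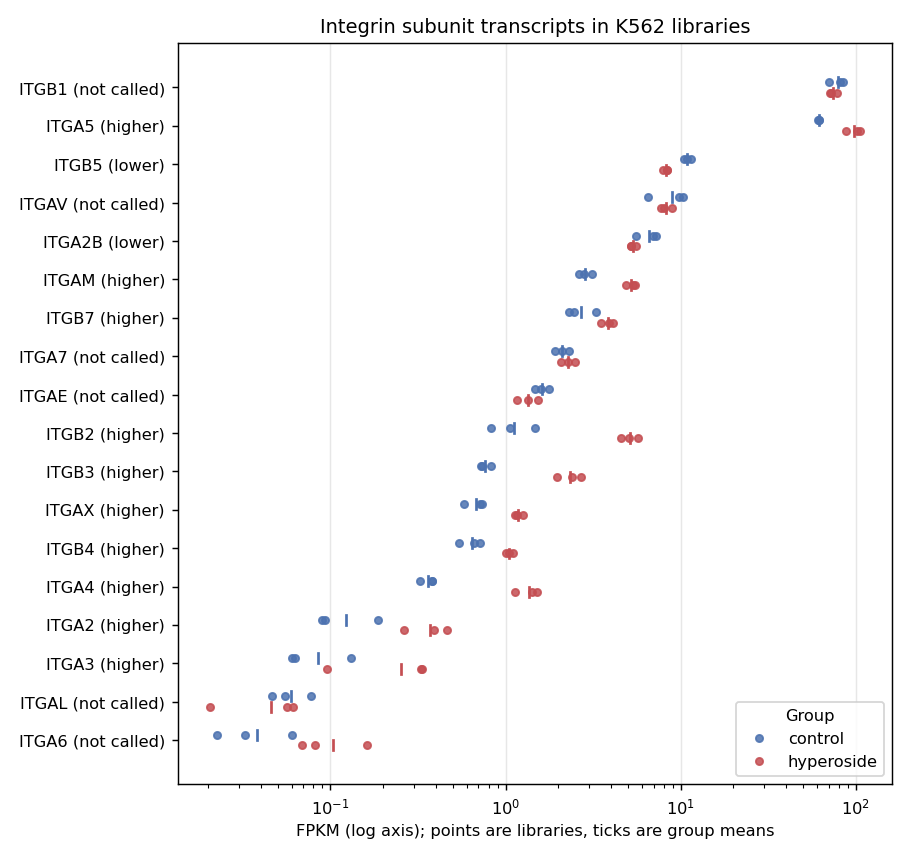
Levels of the 18 tested integrin subunits, with FPKM on a log axis, 1 point per library, a tick at each group mean, and the edgeR call beside each symbol. ITGB1 and ITGA5 sit above 60 FPKM in every library, and every other subunit is below 12 FPKM.

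Promoters of 4 subunits are shown, chosen among the members with an available promoter sequence: ITGA5 and ITGB1 form the most abundant pair, ITGAM rose together with its partner, and ITGA2B fell while its partner rose. No promoter sequence was available here for ITGB2, ITGB3, ITGAX, SELPLG and PECAM1. Each line gives the 250 bases before the RefSeq start (GRCh38.p14), on the strand of the gene, at chr12:54419267-54419516 (minus) for ITGA5, chr10:32958231-32958480 (minus) for 1 of the listed starts of ITGB1, chr16:31259725-31259974 (plus) for ITGAM and chr17:44389650-44389899 (minus) for ITGA2B. These RefSeq starts differ from the ends of the gene spans given above. Most of the ITGA5 window and all of the ITGB1 window lie inside those spans. Capitals mark the letters GAGGAA, read on either strand (TTCCTC), the core of sites for the myeloid factor PU.1.
ITGA5: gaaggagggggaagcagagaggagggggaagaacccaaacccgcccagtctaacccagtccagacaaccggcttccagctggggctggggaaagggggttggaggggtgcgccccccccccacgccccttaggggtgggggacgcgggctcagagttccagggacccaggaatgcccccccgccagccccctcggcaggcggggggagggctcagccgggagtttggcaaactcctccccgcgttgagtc
ITGB1: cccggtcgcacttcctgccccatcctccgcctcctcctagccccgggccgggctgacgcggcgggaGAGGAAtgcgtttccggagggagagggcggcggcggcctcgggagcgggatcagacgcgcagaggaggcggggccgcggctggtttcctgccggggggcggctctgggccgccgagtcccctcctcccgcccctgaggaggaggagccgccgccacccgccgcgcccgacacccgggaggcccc
ITGAM: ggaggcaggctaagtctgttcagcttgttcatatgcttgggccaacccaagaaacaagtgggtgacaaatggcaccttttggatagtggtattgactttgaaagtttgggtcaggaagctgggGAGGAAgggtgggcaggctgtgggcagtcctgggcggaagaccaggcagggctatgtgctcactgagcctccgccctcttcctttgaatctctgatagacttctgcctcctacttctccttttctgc
ITGA2B: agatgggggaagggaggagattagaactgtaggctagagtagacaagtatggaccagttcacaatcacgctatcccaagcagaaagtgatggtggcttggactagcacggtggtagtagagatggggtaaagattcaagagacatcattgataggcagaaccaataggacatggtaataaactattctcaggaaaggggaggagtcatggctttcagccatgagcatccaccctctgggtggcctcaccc
The motif occurred once in the ITGB1 window and once in the ITGAM window, starting at positions -184 and -127 from the start. Of 34788 different RefSeq windows of this length, 23.6% hold it, and 10 of the 29 members with a window do. The letters AGATAA, or TTATCT on the other strand, are 1 form of the GATA factor site and share no position with the first motif here. They were in none of the 4 windows, in 9.21% of all windows and, among the members, in that of GP6. Other forms of the site were not searched, so a window without these letters may still hold a GATA site. These matches describe letters in a short window and say nothing of binding. The GC content was 70.0% for ITGA5, 78.4% for ITGB1, 53.2% for ITGAM and 48.8% for ITGA2B, so the abundant pair had the GC-rich windows.

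The other β1 partners were far below ITGA5. ITGAV, which also pairs with β3 and β5, was at 6.55, 9.78 and 10.3 FPKM under control conditions and 8.89, 7.68 and 8.04 FPKM after hyperoside. Control replicate 1 was the lowest of the 6 libraries and the other control replicates were among the highest, so the groups overlapped (log2 fold change -0.16, 95% interval -0.41 to 0.0896, edgeR adjusted p = 0.288). Without control replicate 1, ITGAV was called lower, at -0.32 (edgeR adjusted p = 9.87e-04). ITGA4, the α subunit of the VCAM-1 receptor, was at 0.381, 0.381 and 0.324 FPKM under control conditions and 1.41, 1.51 and 1.14 FPKM after hyperoside. It rose 3.61-fold, a log2 fold change of 1.85 (SE 0.18, edgeR adjusted p = 2.43e-07), the largest change among the α subunits tested. ITGA7, a laminin receptor subunit, stayed between 1.92 and 2.50 FPKM and was not called (log2 fold change 0.06, 95% interval -0.22 to 0.35). Exons of BLOC1S1 and METTL7B overlap ITGA7 on the opposite strand, and whether the counting used strand is not given in the sources used here.

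The collagen receptor subunit ITGA2 and the laminin receptor subunit ITGA3 stayed below 0.5 FPKM in every library. ITGA2 had 27, 52 and 25 counts under control conditions and 74, 132 and 109 after hyperoside, and rose 2.92-fold (log2 fold change 1.55, SE 0.35, edgeR adjusted p = 0.00145). ITGA3 had 11, 11 and 23 counts against 17, 59 and 59, with a log2 fold change of 1.54 (edgeR adjusted p = 0.0272). Its groups overlapped, and the call was lost when control replicate 1 or 2 or hyperoside replicate 2 or 3 was left out, with adjusted p values from edgeR of 0.0551, 0.0812, 0.123 and 0.130. ITGA6 was not called (log2 fold change 1.39, 95% interval 0.12 to 2.66 before adjustment, edgeR adjusted p = 0.0703).

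Summed over the 12 α partners of β1, the level per library was 71.1, 74.6 and 74.1 FPKM under control conditions and 115.1, 99.8 and 118.1 FPKM after hyperoside. Divided by ITGB1, this gave ratios of 1.01, 0.880 and 0.912 in the control group and 1.47, 1.38 and 1.67 in the hyperoside group. On the log2 scale the mean ratio was 0.69 higher in the hyperoside group, -0.10 ± 0.10 against 0.59 ± 0.14 (SD, n = 3 each). The two-sided exact permutation test gave p = 0.1, the smallest that 3 libraries against 3 allow. The groups did not overlap, and in the hyperoside group partner transcript exceeded ITGB1 transcript in all 3 libraries. Most of the partner sum was ITGA5, which alone went from 0.781 to 1.33 times ITGB1 in the group means. The sum counts all ITGAV and ITGA4 transcript, although both also pair with other β subunits.

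The leukocyte β2 integrins rose on both sides of the pair. ITGB2, the common β subunit, on chromosome 21 from 44885953 to 44931989, was at 1.06, 1.47 and 0.821 FPKM under control conditions and 4.59, 5.04 and 5.73 FPKM after hyperoside. The lowest hyperoside library was well above the highest control library. ITGB2 rose 4.43-fold (log2 fold change 2.15, SE 0.18, edgeR adjusted p = 5.44e-08), the largest change among the β subunits tested, and its exons overlap those of ITGB2-AS1 on the opposite strand. ITGAM, the α subunit of the complement receptor Mac-1, went from 2.81, 3.105 and 2.64 FPKM to 5.34, 4.88 and 5.48 FPKM without overlap, 1.77-fold (log2 fold change 0.83, SE 0.11, edgeR adjusted p = 8.15e-06). ITGAX, the CD11c subunit of a further complement receptor, went from 0.716, 0.581 and 0.733 FPKM to 1.13, 1.16 and 1.26 FPKM, 1.69-fold (log2 fold change 0.76, SE 0.19, edgeR adjusted p = 0.00340). ITGAL, the α subunit of LFA-1, had only 4 to 15 counts per library and was not called (log2 fold change -0.41, 95% interval -1.75 to 0.93).

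The β2 partners together exceeded ITGB2 in every library, but by less in the hyperoside group. The summed α level was 3.38, 2.55 and 4.20 times ITGB2 under control conditions and 1.41, 1.21 and 1.19 times after hyperoside. On the log2 scale the mean was 1.73 ± 0.36 against 0.34 ± 0.14 (SD, n = 3 each), a difference of -1.39 (two-sided exact permutation test, p = 0.1, the smallest possible). The monocytic marker sum moved in the same direction as these genes, and its part in their rise was not tested. CSF1R, the receptor of the monocyte growth factor, had 16, 5 and 6 counts against 35, 30 and 34, at most 0.234 FPKM, and met the filter of 10 counts only through the hyperoside group. Of the other monocytic markers, LYZ was called higher (log2 fold change 0.53, edgeR adjusted p = 3.02e-05). FCGR1A was not called (log2 fold change -0.09), and CD14 had no more than 0.119 FPKM in any library.

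The subunits of the platelet fibrinogen receptor αIIbβ3 moved apart. ITGB3, on chromosome 17 from 47253846 to 47311816, was at 0.733, 0.827 and 0.728 FPKM under control conditions and 2.39, 1.96 and 2.69 FPKM after hyperoside, and rose 2.98-fold (log2 fold change 1.57, SE 0.16, edgeR adjusted p = 3.05e-07). All hyperoside libraries were above all control libraries. An annotated gene, AC068234.1, overlaps its exons on the same strand. ITGA2B, on the same chromosome from 44372180 to 44389505, was at 7.20, 6.98 and 5.54 FPKM under control conditions and 5.18, 5.24 and 5.54 FPKM after hyperoside. Control replicate 3 and hyperoside replicate 3 were level in FPKM, and the fall to 0.781 times the control level (log2 fold change -0.36, SE 0.12, edgeR adjusted p = 0.0196) was lost when control replicate 1 or 2 or hyperoside replicate 1 or 2 was left out, with edgeR adjusted p values of 0.0589, 0.0723, 0.0734 and 0.0590. The ratio of ITGA2B to ITGB3 was 9.83, 8.44 and 7.61 under control conditions and 2.17, 2.67 and 2.06 after hyperoside. ITGA2B transcript exceeded ITGB3 transcript in every library, with a smaller excess after hyperoside.

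The other β subunits split. ITGB5, which pairs with αV to bind vitronectin, fell from 10.9, 11.5 and 10.5 FPKM to 8.33, 8.36 and 7.95 FPKM without overlap (log2 fold change -0.46, SE 0.08, edgeR adjusted p = 2.30e-04). ITGB7, the partner of α4 and αE in gut homing, was at 3.29, 2.47 and 2.32 FPKM against 4.12, 3.50 and 3.91 FPKM (log2 fold change 0.46, SE 0.16, edgeR adjusted p = 0.0233). Opposite-strand genes also overlap exons of ITGA5, ITGA6, ITGAE, ITGAL, ITGAV, ITGB1, ITGB7, LAMA2, LAMB1 and CD44. The ITGB7 call was lost without control replicate 2 or 3 or hyperoside replicate 1 or 3, where the edgeR adjusted p was 0.0845, 0.1046, 0.0852 and 0.0604. ITGB4, which pairs only with α6 in hemidesmosomes, was at 0.718, 0.540 and 0.663 FPKM against 1.10, 1.05 and 1.001 FPKM (log2 fold change 0.66, SE 0.17, edgeR adjusted p = 0.00493), while its partner ITGA6 was at most at 0.161 FPKM. ITGAE, the αE subunit, was between 1.16 and 1.77 FPKM and was not called (log2 fold change -0.31, 95% interval -0.63 to 0.0055, edgeR adjusted p = 0.101).

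Integrins pair in 24 known ways, and the question was which pairs had both transcripts present and which moved together. Both subunits reached a mean of 1 FPKM in at least 1 group for 11 of the 24 pairs. In 3 of the 11, both subunits were called higher, namely α4β7, αMβ2 and αXβ2. In αIIbβ3 both were called, in opposite directions. In 5 pairs a single subunit was called: α higher in α4β1 and α5β1, β higher in αVβ3 and αEβ7, and β lower in αVβ5. Neither subunit was called in α7β1 and αVβ1. ITGA4, ITGAX and ITGB3 passed 1 FPKM in the hyperoside group only, so pairs that hold them were counted because of the higher group. When both groups had to reach 1 FPKM, a rule chosen after seeing the data, 6 pairs were left, and αMβ2 was the 1 pair whose subunits were called in the same direction. Pairs share subunits, with ITGB1 in 12 of the 24, so their number is not a number of independent observations, and transcript levels do not show which pairs were assembled at the cell surface.

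**Figure D2:**
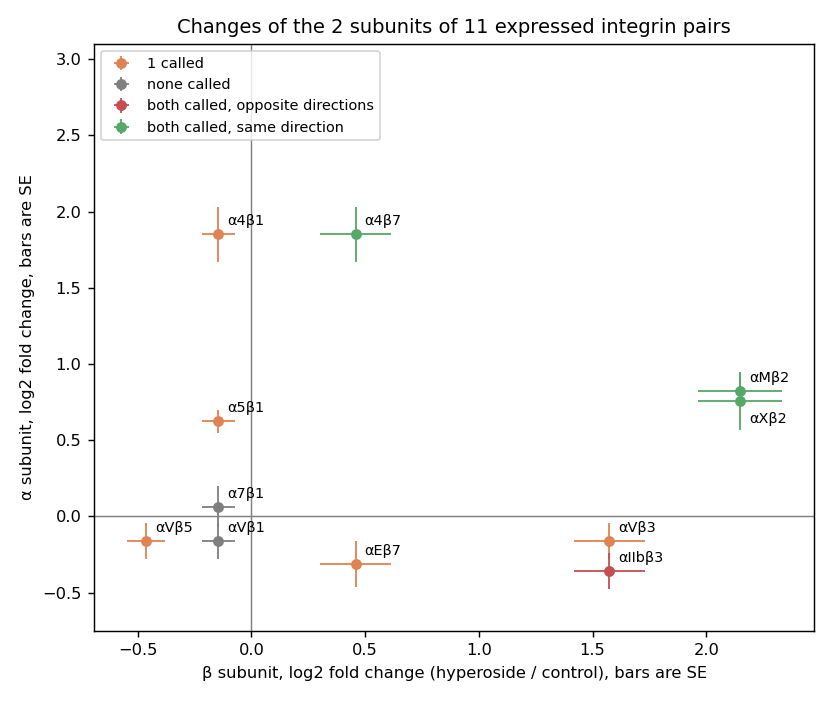
Log2 fold change (hyperoside over control) of the α subunit against that of the β subunit in the 11 expressed pairs, with bars for the SE and colour for the call of each subunit. Only αMβ2, αXβ2 and α4β7 lie clear of 0 on both axes in the upper right, while αIIbβ3 lies at 1.57 for ITGB3 and -0.36 for ITGA2B.

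The pair counts depended on single libraries. Without control replicate 1, where ITGAV and ITGB1 became called lower, 5 pairs had both subunits called in the same direction and 3 in opposite directions. Without any other library 2 or 3 pairs moved together, since α4β7 needs the ITGB7 call. Without control replicate 2 or hyperoside replicate 1 or 2, the count in opposite directions was 0 because the ITGA2B call was lost, and the cause of these shifts was not tested.

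As shares of all α transcript per length, ITGA5 made up 74.1%, 71.2% and 72.1% under control conditions and 79.4%, 78.0% and 80.1% after hyperoside. The mean share rose by 6.71 percentage points, from 72.5 ± 1.51% to 79.2 ± 1.07% (SD, n = 3 each). ITGAV went from 10.4 ± 2.29% to 6.62 ± 0.461% and ITGA2B from 7.73 ± 1.08% to 4.30 ± 0.321%. Among the β subunits, ITGB1 went from 82.9 ± 1.86% to 78.2 ± 1.17%, ITGB5 from 11.5 ± 0.847% to 8.71 ± 0.319%, and ITGB2 from 1.17 ± 0.297% to 5.45 ± 0.787%. Only shares with a mean of at least 5% in either group were tested. ITGB2 met this rule through the hyperoside group only, so its separation is not independent of the rule. In all 6 of these shares the groups did not overlap. A two-sided exact permutation test of each gave p = 0.1, the smallest p this design allows. The value was the same after Benjamini-Hochberg adjustment over those 6 shares. Shares within a family are parts of 1 whole, so a fall of one can accompany the rise of another without a change of its own level.

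**Figure D3:**
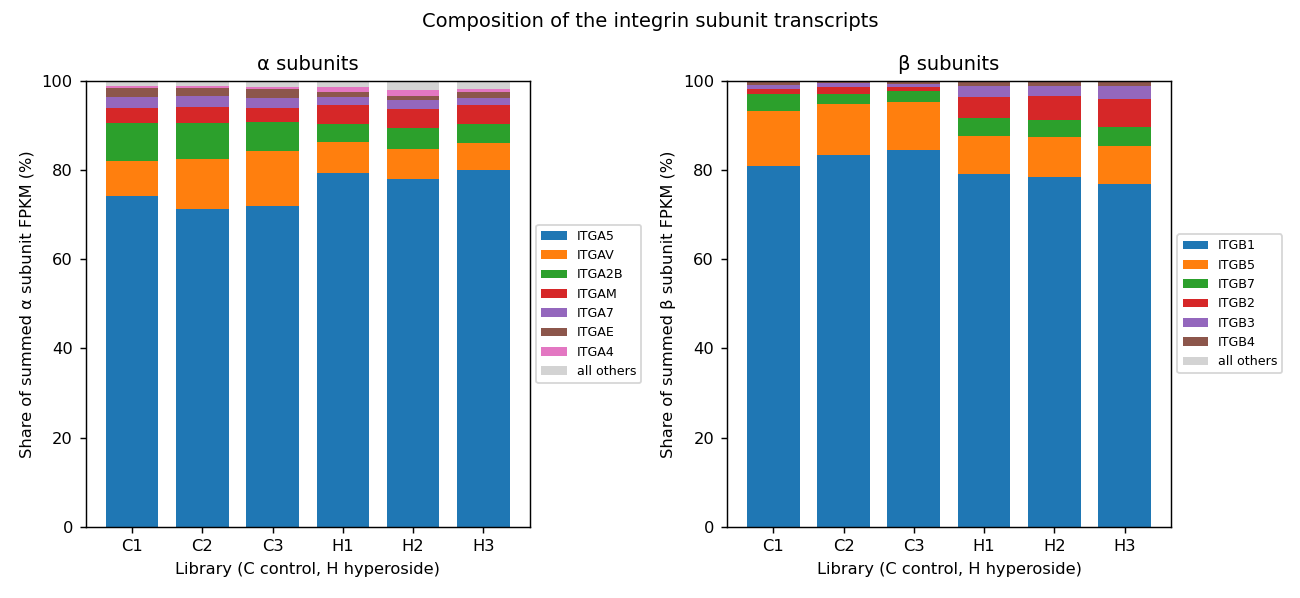
Share of each subunit in the summed FPKM of the 18 α subunits (left) and the 8 β subunits (right), with 1 bar per library (C control, H hyperoside). The ITGA5 block grows from between 71.2% and 74.1% to between 78.0% and 80.1%, and the ITGB2 block from at most 1.44% to at least 4.65%.

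Of the 5 laminin chains tested, 3 were called lower, 1 was called higher and 1 was not called, beside 23.2% lower and 22.1% higher over all tested genes. Of these 4 calls, that of LAMA5 held in every alternative run and the others did not. LAMA5, the laminin α5 chain, on chromosome 20 from 62307955 to 62367312, fell from 9.77, 9.81 and 10.5 FPKM to 7.38, 7.17 and 6.62 FPKM (log2 fold change -0.55, SE 0.07, edgeR adjusted p = 8.69e-06). The groups did not overlap, and exons of ADRM1 overlap the gene on the opposite strand. LAMB1 was at 4.36, 5.61 and 5.57 FPKM under control conditions and 4.20, 3.46 and 4.47 FPKM after hyperoside, where control replicate 1 fell between hyperoside values in FPKM (log2 fold change -0.40, SE 0.11, edgeR adjusted p = 0.00742). LAMC1, the common γ chain, fell from 0.494, 0.538 and 0.485 FPKM to 0.349, 0.227 and 0.363 FPKM (log2 fold change -0.74, SE 0.24, edgeR adjusted p = 0.0157). Without hyperoside replicate 2, the calls of LAMB1 and LAMC1 were lost (edgeR adjusted p = 0.0544 and 0.0698).

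LAMB2, the alternative β chain, stayed between 5.20 and 5.87 FPKM and was not called (log2 fold change -0.10, 95% interval -0.29 to 0.0905). LAMA2, the α chain of muscle laminin, had 17, 17 and 24 counts against 39, 43 and 58 and rose (log2 fold change 1.22, SE 0.43, edgeR adjusted p = 0.0278), at a level of no more than 0.102 FPKM. Its call was lost without control replicate 1 or 2 or hyperoside replicate 3, with edgeR adjusted p values of 0.0567, 0.0725 and 0.124. A trimer with LAMA5 also needs a β and a γ chain, and LAMC1 was at most at 0.538 FPKM beside at least 6.62 FPKM of LAMA5. Among laminin and basement membrane genes outside the set, 5 of 11 were tested: LAMB3, a β chain of epithelial laminin, rose from 6.22 ± 0.189 to 10.6 ± 0.781 FPKM (SD, n = 3 each; log2 fold change 0.72, edgeR adjusted p = 5.51e-06), agrin (AGRN) fell from 24.1 ± 1.27 to 18.5 ± 0.490 FPKM, and 3 were not called.

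SELPLG, PECAM1 and CD44 rose. SELPLG encodes PSGL-1, the leukocyte ligand of P-selectin, and lies on chromosome 12 from 108622277 to 108633959. It was at 1.94, 1.47 and 1.67 FPKM under control conditions and 9.51, 9.60 and 10.1 FPKM after hyperoside, a 5.56-fold rise (log2 fold change 2.47, SE 0.13, edgeR adjusted p = 1.63e-10) that was the largest of the set. PECAM1, the adhesion molecule CD31 of platelets, leukocytes and endothelium, went from 1.21, 1.42 and 1.28 FPKM to 3.68, 4.19 and 3.76 FPKM (log2 fold change 1.52, SE 0.11, edgeR adjusted p = 8.39e-09). CD44, the hyaluronan receptor, went from 6.41, 7.12 and 7.18 FPKM to 12.9, 11.1 and 12.6 FPKM (log2 fold change 0.77, SE 0.08, edgeR adjusted p = 8.85e-07). In these 3 genes every hyperoside library was above every control library, and each call held without any single library.

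CD47, which binds SIRPα on phagocytes, did not pass the test. It was at 5.34, 6.74 and 6.99 FPKM under control conditions and 6.80, 6.84 and 6.55 FPKM after hyperoside, and the 95% interval of its log2 fold change of 0.03 ran from -0.15 to 0.22. CD99, a receptor in leukocyte passage through endothelium, was high in a single library. It had 77, 104 and 95 counts under control conditions, 84 and 89 in hyperoside replicates 1 and 2, and 1035 in hyperoside replicate 3. EdgeR called it higher (log2 fold change 2.09, SE 0.64, adjusted p = 0.0131), but without hyperoside replicate 3 the log2 fold change was -0.13 and the edgeR adjusted p was 0.747. With the replicate number as a block the edgeR adjusted p was 0.0505. CD99 is annotated at the same position, 2691133 to 2741309, on both X and Y, so reads can match more than 1 copy and its counts are uncertain in every library. The cause of the high count in hyperoside replicate 3 was not tested.

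GP6 encodes the platelet collagen receptor GPVI and lies on chromosome 19 from 55013705 to 55038264. It had 26, 69 and 79 counts under control conditions and 155, 197 and 138 after hyperoside. Control replicate 1 was the lowest library and the groups did not overlap. GP6 rose 2.73-fold (log2 fold change 1.45, SE 0.31, edgeR adjusted p = 0.00104), and its exons overlap AC011476.2 on the same strand and AC011476.3 on the opposite strand. FCER1G, the signalling chain of GPVI, was at most at 0.284 FPKM, and VWF had 5 counts at most. Of 17 other platelet genes, 8 were tested, and 4 were called higher and 2 lower (6 of 8, beside 45.3% of all tested genes). TUBB1, the platelet β-tubulin, rose from 2.33 ± 0.144 to 7.36 ± 0.368 FPKM (log2 fold change 1.61, edgeR adjusted p = 3.16e-09), and F2RL3, the thrombin receptor PAR4, from 0.241 ± 0.0377 to 1.03 ± 0.388 FPKM (log2 fold change 2.04, edgeR adjusted p = 6.76e-05; SD, n = 3 each). The ADP receptor gene P2RY1 and the thrombin receptor gene F2R fell, with log2 fold changes of -0.62 and -0.49, and the granule genes RAB27B and NBEAL2 rose, with log2 fold changes of 0.49 and 0.17. Without hyperoside replicate 1, 2 of these genes were called higher, and without hyperoside replicate 3, 1 was called lower. Over all genes, these runs called 5558 and 5785 genes, against 6841 in the full run. The megakaryocytic marker sum rose from between 2.31 and 2.54 FPKM to between 7.24 and 7.88 FPKM, nearly all of it TUBB1, and its part in the changes of GP6 and ITGB3 was not tested.

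**Figure D4:**
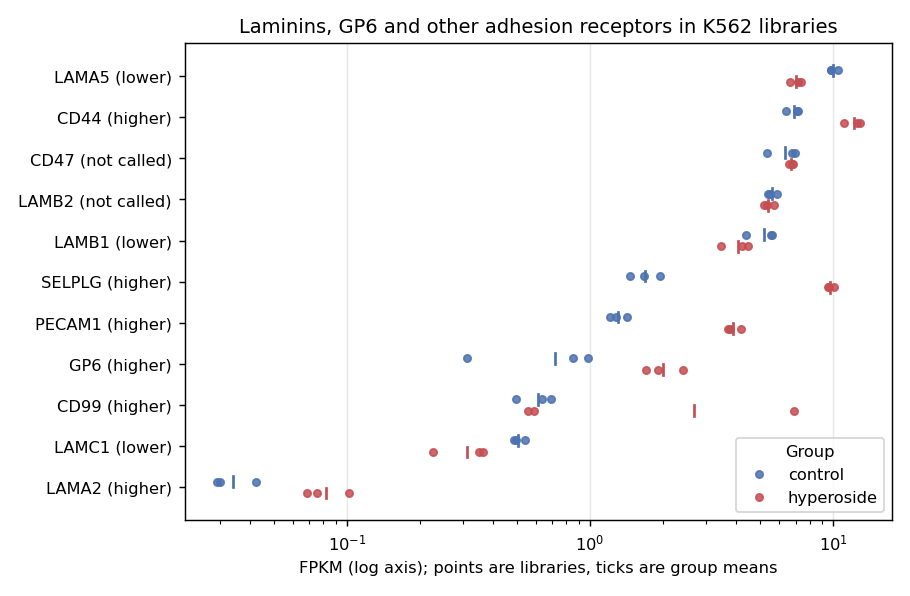
Levels of the tested laminins, GP6 and other adhesion receptors, with FPKM on a log axis, 1 point per library, a tick at each group mean and the edgeR call beside each symbol. SELPLG and PECAM1 separate fully between the groups, and the CD99 mean of the hyperoside group is drawn up by the 1 library at 6.86 FPKM.

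Ligands and partners outside the set were taken as further lists, in which 36 of 83 tested genes were called (43.4%), near the 45.3% of all tested genes. Of 25 integrin ligands, 14 were tested, and 4 were called higher and 2 lower (42.9%), and 7 were called higher without control replicate 1. ICAM1 and ICAM2, ligands of β2 integrins, rose from 15.7 ± 1.85 to 24.7 ± 1.41 FPKM (log2 fold change 0.60, edgeR adjusted p = 2.77e-05) and from 9.62 ± 1.47 to 15.8 ± 1.496 FPKM (log2 fold change 0.67, edgeR adjusted p = 3.70e-04; SD, n = 3 each). TGFB1, whose latent form binds αV integrins, rose (log2 fold change 0.42, edgeR adjusted p = 2.58e-04), and so did its binding protein gene LTBP1 (log2 fold change 0.26). MFGE8, a bridging ligand of αVβ3 and αVβ5, fell from 36.4 ± 1.51 to 23.7 ± 0.585 FPKM (log2 fold change -0.67, edgeR adjusted p = 9.54e-07). COL1A1, a collagen chain, fell to at most 0.249 FPKM (log2 fold change -0.99, edgeR adjusted p = 0.00711). Fibronectin itself, FN1, was at 19.1, 31.3 and 31.4 FPKM under control conditions and 33.3, 27.3 and 33.0 FPKM after hyperoside and was not called (log2 fold change 0.15, edgeR adjusted p = 0.356).

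Of 36 adaptor and signalling genes that act on integrin tails, 32 were tested, and 8 were called higher and 6 lower (43.8%, near the share of all tested genes). The talin gene TLN1, whose product switches integrins to their active form, was at 45.4 to 51.2 FPKM in the 6 libraries and was not called (log2 fold change 0.07, edgeR adjusted p = 0.381). FERMT3, the kindlin of blood cells, rose from 37.2 ± 3.04 to 49.3 ± 3.22 FPKM (log2 fold change 0.36, edgeR adjusted p = 0.00213), and LIMS1, CRKL and BCAR1 rose as well, with log2 fold changes of 0.44, 0.32 and 0.42. APBB1IP, the RIAM adaptor that brings talin to the membrane, had 10, 9 and 3 counts against 43, 34 and 44, and met the filter of 10 counts only through the hyperoside group, so its call is not independent of that filter. RASGRP2, the Rap1 exchange factor of platelets, fell from 1.39 ± 0.114 to 0.742 ± 0.0482 FPKM (log2 fold change -0.95, edgeR adjusted p = 3.20e-04), and the αIIb-binding CIB1, the focal adhesion kinase gene PTK2 and the parvin gene PARVB fell as well, with log2 fold changes of -0.39, -0.30 and -0.37. With the replicate number as a block, 5 of these genes rather than 8 were called higher. The number was also 5 without control replicate 2 and without hyperoside replicate 3. Over all genes, these runs called 6129, 5933 and 5785 genes in turn, against 6841 in the full run.

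Tetraspanins, membrane organizers that associate with integrins, had 12 tested genes, of which 5 were called higher and 1 lower (50.0%, near the 45.3% of all tested genes). TSPAN33, an erythroid member of the family, fell from 2.79, 1.503 and 1.78 FPKM to 0.151, 0.178 and 0.303 FPKM (log2 fold change -3.31, SE 0.32, edgeR adjusted p = 2.39e-07). CD63 rose from 137.9 ± 5.002 to 198.6 ± 8.15 FPKM (log2 fold change 0.48, edgeR adjusted p = 3.01e-05), CD82 from 7.23 ± 1.34 to 12.6 ± 0.415 FPKM and TSPAN32 from 0.746 ± 0.0764 to 1.92 ± 0.197 FPKM (SD, n = 3 each). CD9 and CD37 were called with log2 fold changes of 0.39 and 0.29. Without control replicate 3, hyperoside replicate 1 or hyperoside replicate 3, 3 tetraspanins were called higher. Over all genes, these runs called 6398, 5558 and 5785 genes in turn, against 6841 in the full run. Of 19 other adhesion receptors and ligands, 12 were tested and 2 were called (16.7%, beside 45.3% of all tested genes). F11R, the junctional adhesion molecule JAM-A, fell from 65.4 ± 1.75 to 41.4 ± 1.47 FPKM (log2 fold change -0.71, edgeR adjusted p = 2.19e-07), and SIRPA, the gene of the CD47 partner, was called higher. SIRPA had 11, 2 and 26 counts against 35, 61 and 57, and it too met the filter only through the hyperoside group. Without hyperoside replicate 2 or 3 the SIRPA call was lost. In this list 2 genes rather than 1 were called lower without any 1 of the control replicates or without hyperoside replicate 1, and also with DESeq2 or without the filter.

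**Figure D5:**
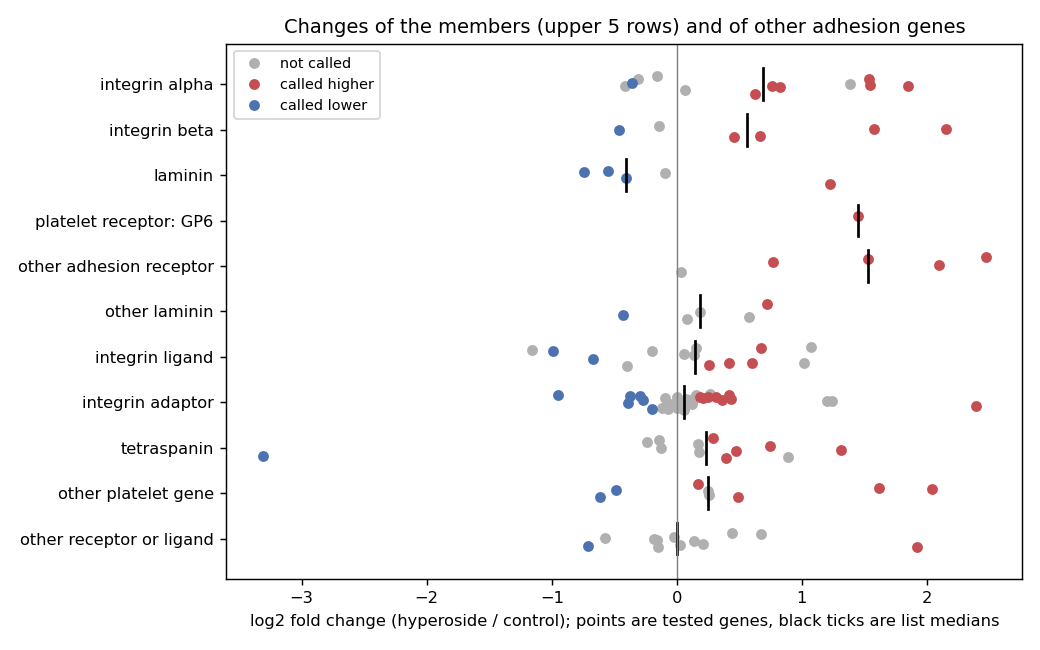
Log2 fold change (hyperoside over control) of each tested gene by list, coloured by its edgeR call, with a black tick at the list median. The set's own lists are the upper 5 rows, and their medians run from -0.40 for the laminins to 1.52 for the other adhesion receptors. The latter median depends on CD99, whose log2 fold change was -0.13 without hyperoside replicate 3. Medians of the 6 further lists lie between 9.1e-06 and 0.25.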

How the data were processed

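RNA-seq of K562 cells comprised 6 libraries, grouped by their labels into 3 control and 3 hyperoside libraries. The submitters' processing notes name fastp, HISAT2, HTSeq and hg38, whose versions, annotation and strand setting are not given in the sources used here. The authors deposited raw counts per gene and FPKM values, in which 1 gene length accounted for the counts of all 6 libraries within 0.5 base in each of 23241 genes with counts. Counts were filtered with filterByExpr (minimum 10, total 15), scaled by TMM and tested by quasi-likelihood in edgeR 4.0.16 in R 4.3.3, with condition as the only term and Benjamini-Hochberg adjustment over 15095 genes. The standard error is the log2 fold change divided by the square root of F, and 95% intervals use the degrees of freedom of the test. A second rule added a fold above 2. FPKM served for levels, shares and ratios, with exact permutation tests over 20 regroupings. DESeq2 1.42.0 and limma 3.58.1 served as alternatives, with Python 3.11.15 for tables. The steps were tested on simulated counts. Positions came from GENCODE 29 on GRCh38, and promoter sequences, found for 29 of 41 genes, from RefSeq (GRCh38.p14). Every member was to be reported, and of each further list up to 5 called genes per direction. FN1, TLN1, FCER1G and VWF were named outside this rule, after their values were seen. Some results are not reported here. The members and lists were chosen with earlier results of these data known. Precision is set by 35613283 to 36754725 counts per library.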

Additional observations from a re-analysis of the deposited data

How the results depend on the processing

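Of the 29 tested genes of the set, 18 kept their direction and their side of the adjusted p threshold in all 13 alternatives, which covered normalization by DESeq2 size factors or upper quartiles, the DESeq2 test, limma-trend on log2(FPKM + 1) and log2(FPKM + 0.1), no filter on low counts, a block for the replicate number and the omission of each library. ITGA2B, ITGA3, ITGB7, LAMA2, LAMB1, LAMC1 and CD99 lost their call in at least 1, ITGAV and ITGB1 gained one, and CD99 changed sign without hyperoside replicate 3, its log2 fold change running from -0.13 to 2.58 over the left-out libraries. Of the genes not called, ITGA7 ran from -0.0177 to 0.127 over the left-out libraries and CD47 from -0.0570 to 0.0894, each changing sign without 1 control library. With 16 genes called higher, the count ran from 12 to 15 over the left-out libraries, and with 5 called lower from 2 to 6. It was 3 lower with limma-trend on log2(FPKM + 1) and 2 with log2(FPKM + 0.1). Over all genes, the runs with 1 library left out called from 5558 to 7167 genes, against 6841 in the full run. The counts of the further lists in such runs are to be read beside these totals. With a fold above 2, 10 genes were higher, 7 to 10 over the left-out libraries and 3 with log2(FPKM + 1), where the added 1 shrinks the change of low genes. At 2 FPKM 7 pairs counted as expressed and 1 moved together, and at 1 FPKM in both groups 6 and 1, with 0 in opposite directions. Pairs moving together ranged from 2 to 5 over the left-out libraries and pairs in opposite directions from 0 to 3, and the latter count was 0 under both limma-trend settings. In αIIbβ3 the call of ITGA2B was the one lost.

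With the replicate block, 15 genes of the set were called higher and 5 lower, and the pair counts were 3 and 1. Of the set it changed the CD99 call and no other. The same-numbered libraries had correlations of -0.081, -0.0327 and -0.0342 between their deviations from the group means, so no shared deviation was seen. Whether same-numbered libraries were handled together is not given by the labels, and these correlations cannot tell. The shares and ratios kept their direction in every alternative run for them. Genes under about 0.5 FPKM, such as ITGA3 and LAMA2, had few counts, and depth limits what can be said of them.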
